A study of Mus musculus with 6 samples.

Results

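The 10 chemokine genes described here, IL8 (CXCL8), CXCL1, CXCL2, CXCL3, CXCL5, CXCL6, CCL2, CCL5, CCL20 and CXCL10, encode small secreted proteins that attract leukocytes, mainly neutrophils and monocytes. They were taken by exact symbol from a table of 23284 human genes measured in 6 tumours. All 10 were listed, and 9 of them were among the 12586 genes tested. Tested genes were those whose mean over the tumours reached 1 FPKM (fragments per transcript length and library size). The set was chosen by values measured here: the levels of these genes in these tumours, their covariation and their treatment difference were in view when it was proposed. Those values are therefore given as a description, with no test on the 10 genes.

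The tumours grew under the skin of athymic nude mice, which lack thymus-derived T cells and keep neutrophils, monocytes and NK cells. They came from 1 line, STS26T, established from a human malignant tumour of the peripheral nerve sheath; the labels name no engineered allele. When tumours averaged about 100 mm3, 1 week after injection, mice were given TRC105 with M1043, antibodies against human and mouse endoglin (ENG), or control IgG, at 10 mg/kg and 2 times a week for 3 weeks. Each arm had 3 tumours, called IgG control 1 to 3 and anti-ENG 1 to 3. The sex and age of the mice are not given in the labels. The tumours' description codes carry the number 5 for both IgG control 2 and 3 (5L and 5R). They carry the number 21 for both anti-ENG 1 and 2 (21L and 21R). The labels do not say what the letters mean or whether a shared number means a shared mouse, so the spread between tumours may understate that between animals. All SDs, SEs and p-values given here take each tumour as a separate unit.

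Chemokines bind to seven-helix receptors on leukocytes and guide them along a gradient. IL8, CXCL1, CXCL2, CXCL3, CXCL5 and CXCL6 share a short motif before their first cysteines, act through CXCR2 (IL8 and CXCL6 also through CXCR1) and draw neutrophils. CCL2 acts through CCR2 on monocytes, CCL5 through CCR1 on monocytes and T cells, CCL20 through CCR6 on dendritic cells and lymphocytes, and CXCL10 through CXCR3 on activated T and NK cells. Many of these genes are induced by NF-kappaB after interleukin 1 or tumour necrosis factor, and CXCL10 and CCL5 are induced by interferon as well.

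Relative depth, read from the steps between the smallest values (0.05 FPKM or less) and set against IgG control 1, was 1.10 to 1.18 in the other IgG tumours and 1.14 to 1.46 in the anti-ENG tumours. The absolute depth is unknown. The FPKM of all genes summed to 410786 to 443148 in the IgG tumours and 446100 to 475146 in the anti-ENG tumours. The arms did not overlap in this sum, so a comparison of arms depends on the scaling. Correlations of log2(FPKM + 1) across all tested genes lay between 0.932 and 0.984 over the pairs of tumours. ENG had FPKM values of 41.0, 23.9 and 22.1 in IgG control tumours 1 to 3 and of 15.5, 29.5 and 26.7 in anti-ENG tumours 1 to 3, with overlapping arms. Among markers of the line's lineage, vimentin (VIM) was at 1386 to 2182 FPKM, while the Schwann cell markers S100B and SOX10 did not exceed 0.104 and 0.188 FPKM in any tumour.

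IL8, the main human neutrophil attractant, was the most abundant of the set by its mean. It had FPKM values of 3088, 145 and 630.2 in IgG control tumours 1 to 3 and of 129, 156 and 2286 in anti-ENG tumours 1 to 3. Each arm thus held 1 tumour far above the rest, while IgG control 2, anti-ENG 1 and anti-ENG 2 lay close together at the bottom and IgG control 3 lay between. IL8 was the 5th most abundant gene of all in IgG control 1 and the 10th in anti-ENG 3. In the remaining tumours its rank ran from 86 to 522. The highest tumour exceeded the lowest 23.9-fold, a span reached by 0.542% of the 12557 tested genes above 0 in all 6 tumours, where the median span was 1.53-fold.

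CXCL1 (GRO-alpha), first known as a melanoma growth-stimulating activity, ordered the tumours almost as IL8 did. It had FPKM values of 1288, 59.0 and 495 in IgG control tumours 1 to 3 and of 36.3, 59.5 and 1304 in anti-ENG tumours 1 to 3. Its highest tumour was in the anti-ENG arm and so was its lowest, 35.97-fold apart, and the arms overlapped fully. CXCL2 and CXCL3, close paralogues of CXCL1 in the same gene cluster, were less abundant. CXCL2 had 80.5, 7.60 and 17.1 FPKM in the IgG tumours and 7.88, 10.6 and 48.5 in the anti-ENG tumours. CXCL3 had 45.6, 2.96 and 10.2 FPKM in the IgG tumours and 2.60, 4.34 and 36.5 in the anti-ENG tumours. In both genes IgG control 1 was highest, anti-ENG 3 was next and IgG control 3 followed, as for IL8. The GRO genes are near-identical in part, so how the submitters' counting shared reads among them can affect each of the 3 values. The ratio of CXCL2 to CXCL3 was 1.33 to 3.03 in single tumours.

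CXCL5 (ENA-78), a neutrophil attractant of epithelial and stromal cells, kept the order at its top with a narrower span. It had FPKM values of 102, 19.0 and 59.7 in IgG control tumours 1 to 3 and of 22.9, 20.5 and 99.9 in anti-ENG tumours 1 to 3. IgG control 1 and anti-ENG 3 were nearly equal, and its span was 5.36-fold. CXCL6 (GCP-2), the neighbour and closest relative of CXCL5, was at trace level in every tumour. It had 0.0713, 0.121 and 0 FPKM in the IgG tumours and 0, 0 and 0.125 in the anti-ENG tumours. Corrected for relative depth, the values of IgG control 2 and anti-ENG 3 were each 2 times that of IgG control 1, so these may be 1 or 2 fragments, and no fold change is given for CXCL6.

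CCL20 (MIP-3-alpha), the ligand of CCR6, went with the neutrophil attractants although it belongs to the CC family. It had FPKM values of 102, 5.99 and 28.8 in IgG control tumours 1 to 3 and of 3.66, 5.27 and 63.5 in anti-ENG tumours 1 to 3. The 3 highest tumours were the same and in the same order as for IL8, and the span was 27.8-fold.

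CCL2 (MCP-1), the main monocyte attractant, was high in every tumour. It had FPKM values of 1199.8, 446 and 658 in IgG control tumours 1 to 3 and of 392, 669 and 977 in anti-ENG tumours 1 to 3. The lowest tumour still ranked CCL2 148th among all genes, and the span was 3.06-fold. CCL5 (RANTES) had 33.0, 12.6 and 29.5 FPKM in the IgG tumours and 9.10, 28.1 and 33.4 in the anti-ENG tumours. Here 4 tumours lay close together and IgG control 2 and anti-ENG 1 lay below them. CXCL10 (IP-10) had 203, 107 and 136 FPKM in the IgG tumours and 64.2, 207 and 175 in the anti-ENG tumours. Its highest tumour was anti-ENG 2, which was near the bottom for IL8 and CXCL1. As great a span as that of CCL2, CCL5 or CXCL10 was found in 9.14%, 6.81% and 8.23% of tested genes.

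**Figure D1:**
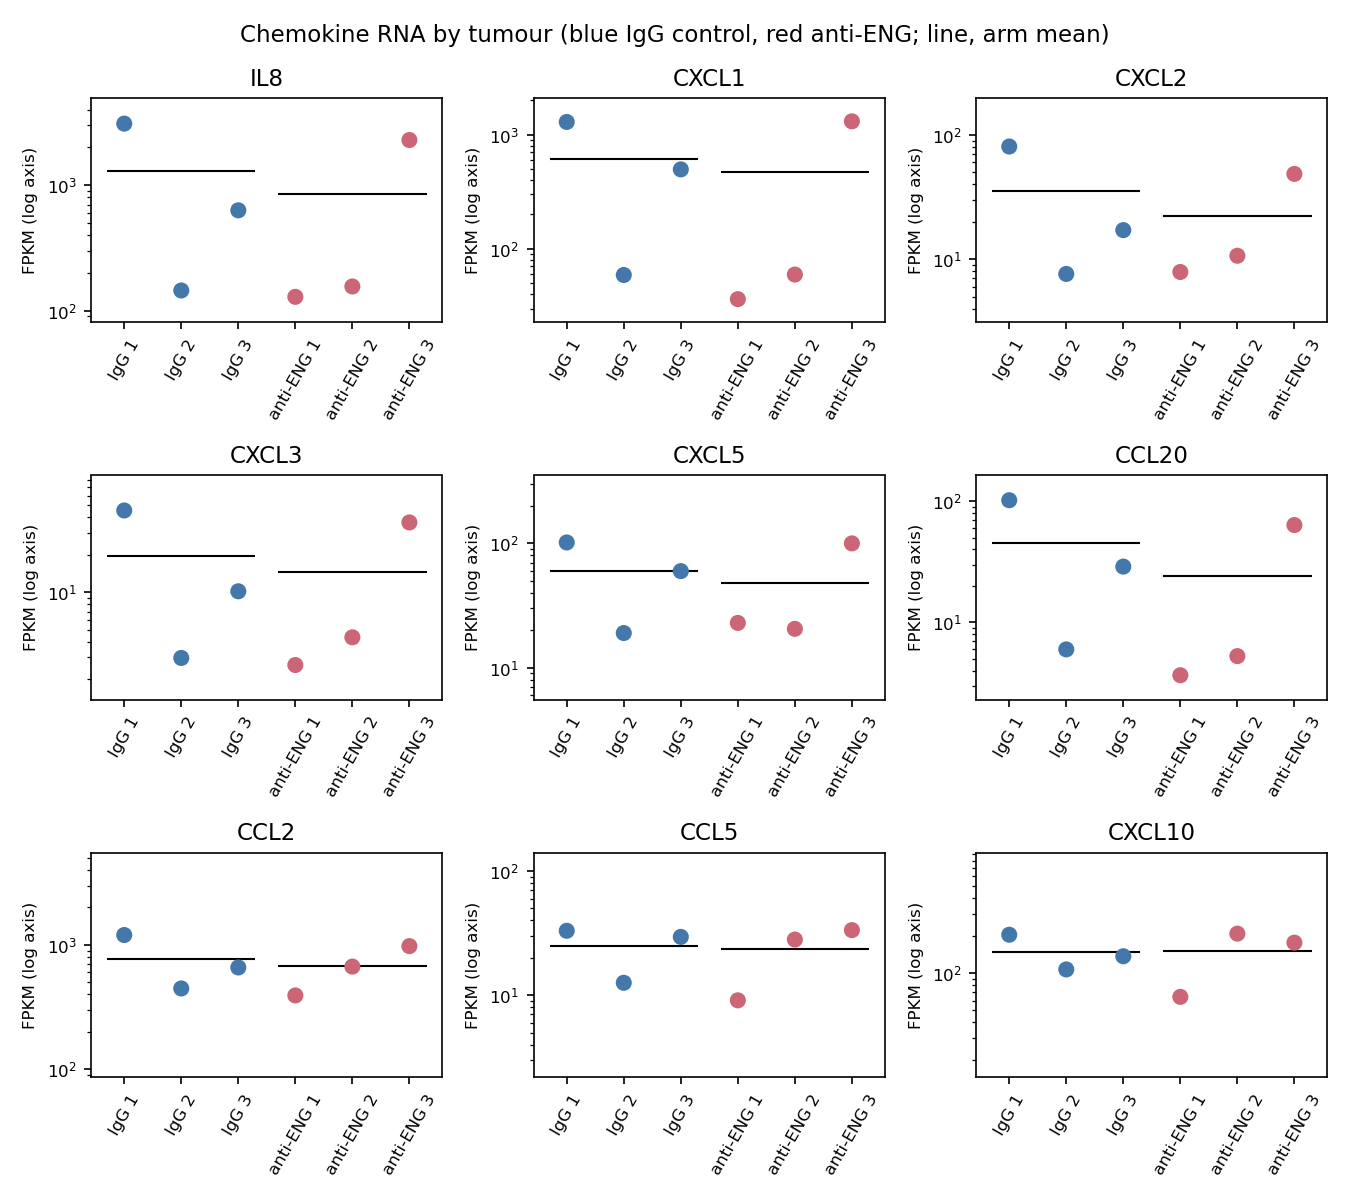
FPKM of each of the 9 tested chemokine genes in the 6 tumours (points; log axis, with a range that differs between panels), with the arm mean as a line. IgG control 1 and anti-ENG 3 stand highest for IL8, CXCL1, CXCL2, CXCL3, CXCL5 and CCL20, whereas anti-ENG 2 joins the upper tumours for CCL5 and CXCL10.

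IgG control 1 was among the top 2 tumours in 9 of 9 tested chemokines, and anti-ENG 3 in 8 of 9. IgG control 3 was the next highest in 7 of 9. Anti-ENG 1 was lowest in 7 of 9 and IgG control 2 in the other two, CXCL2 and CXCL5. Tumours with the same code number did not have to be alike. IL8 was 4.35-fold and CXCL1 8.4-fold higher in IgG control 3 than in IgG control 2, which share the number 5. In the pair with the number 21, IL8 was 1.21-fold higher in anti-ENG 2 than in anti-ENG 1, whereas CCL5 was 3.08-fold and CXCL10 3.23-fold higher. The tumours at the top had different numbers and different arms, and anti-ENG 3 had 0.602 to 1.01 times the level of IgG control 1 in the 9 genes.

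By mean FPKM over the 6 tumours, which compares genes per length, the order of levels was IL8, CCL2, CXCL1, CXCL10, CXCL5, CCL20, CXCL2, CCL5, CXCL3 and CXCL6. The means were 1072 ± 1290, 724 ± 312 and 540.3 ± 610.1 FPKM (SD, n = 6) for IL8, CCL2 and CXCL1. These neighbours did not differ beyond their spread: IL8 exceeded CCL2 in 2 of 6 tumours, and CCL2 exceeded CXCL1 in 4 of 6. CXCL10 exceeded CXCL5 in 6 of 6 tumours, with means of 149 ± 56.8 and 53.9 ± 39.3 FPKM (SD, n = 6). CXCL5 exceeded CCL20 in 5 of 6. The order of CCL20, CXCL2, CCL5 and CXCL3 changed between tumours. CXCL3 exceeded CXCL6 in 6 of 6.

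The make-up of the chemokine RNA therefore differed between tumours. The 10 genes summed to 6141, 805 and 2065 FPKM in IgG control 1, 2 and 3 and to 667, 1160.4 and 5024 FPKM in anti-ENG 1, 2 and 3. That was 0.140 to 1.39% of all FPKM of a tumour. IL8 made up 50.3% of the sum in IgG control 1, 45.5% in anti-ENG 3 and 30.5% in IgG control 3, against 13.4 to 19.3% in the other three. CCL2 made up 19.4 and 19.5% in the top tumours and 55.4 to 58.7% in IgG control 2, anti-ENG 1 and anti-ENG 2. CXCL10 had its greatest share, 17.9%, in anti-ENG 2. In bulk tumours, fewer cells that make a chemokine and less RNA per cell cannot be told apart.

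**Figure D2:**
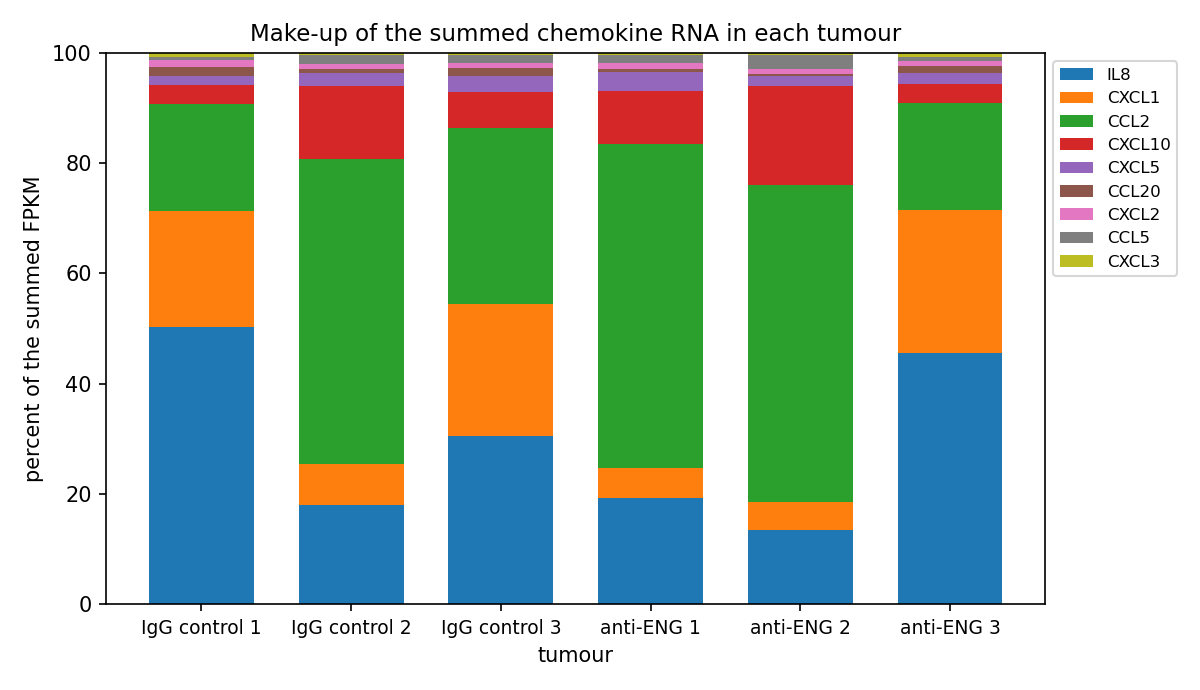
Share of each tested chemokine in the summed FPKM of the 10 genes (stacked bars, percent) in each tumour; CXCL6 is too low to be drawn. CCL2 takes 55.4 to 58.7% in IgG control 2, anti-ENG 1 and anti-ENG 2, and IL8 with CXCL1 take most of the sum in IgG control 1, anti-ENG 3 and IgG control 3.

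Between arms the chemokine values overlapped for every tested member. The groups lay apart in 0 of 9 members, against 10.6% of all genes tested that lay apart and higher and 6.75% apart and lower in the anti-ENG arm, 17.3% in all. No member was among genes called by limma at an adjusted p under 0.05, of which there were 0 higher and 0 lower (0% of 12586 each); 1154 genes (9.17%) had an unadjusted p under 0.05. The estimates on the log2(FPKM + 1) scale, anti-ENG against IgG control, were below 0 in 9 of 9 members, against 48.8% of all genes tested, with a member median of -0.44 beside 0.0065 over all tested genes. The choice of members used this contrast, so nothing is read from that count.

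The sizes were small against the spread between tumours. IL8 had arm means of 1288 ± 1578 and 857 ± 1238 FPKM (SD, n = 3 each) and a log2 fold change of -0.87 (SE 1.36). CXCL1 had 614 ± 623 and 467 ± 725 FPKM (SD, n = 3 each) and a log2 fold change of -1.24 (SE 1.53), the farthest from 0 of the set. CCL20 had 45.5 ± 50.01 and 24.2 ± 34.1 FPKM (SD, n = 3 each) and a log2 fold change of -1.17 (SE 1.21). For these 3 genes the SE was larger than the estimate. The estimates were -0.51 for CXCL3, -0.44 for CXCL2 and -0.42 for CXCL5, with SEs of 1.08, 0.91 and 0.74. CCL2 had 768 ± 389 and 679 ± 293 FPKM (SD, n = 3 each) and a log2 fold change of -0.15 (SE 0.43). CCL5 had -0.16 (SE 0.52) and CXCL10 -0.11 (SE 0.44), with CXCL10 means of 149 ± 49.3 and 149 ± 75.1 FPKM (SD, n = 3 each).

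The direction of most estimates rested on single tumours. CXCL1 and CCL20 stayed below 0 whichever 1 tumour was left out. Without IgG control 1, 2 of 9 estimates were below 0 (CXCL1 and CCL20) and the median was 0.14. Without anti-ENG 1, 4 of 9 were below 0 and the median was 0.042. Without both, 0 of 9 were below 0, the median was 0.66 and the estimate of IL8 was 0.98. Without anti-ENG 3 all 9 were below 0, with a median of -1.20. All 9 were also below 0 without IgG control 2 or without anti-ENG 2, and 8 of 9 without IgG control 3. With sample weights estimated by limma, 2 of 9 were below 0 and the median was 0.26.

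**Figure D3:**
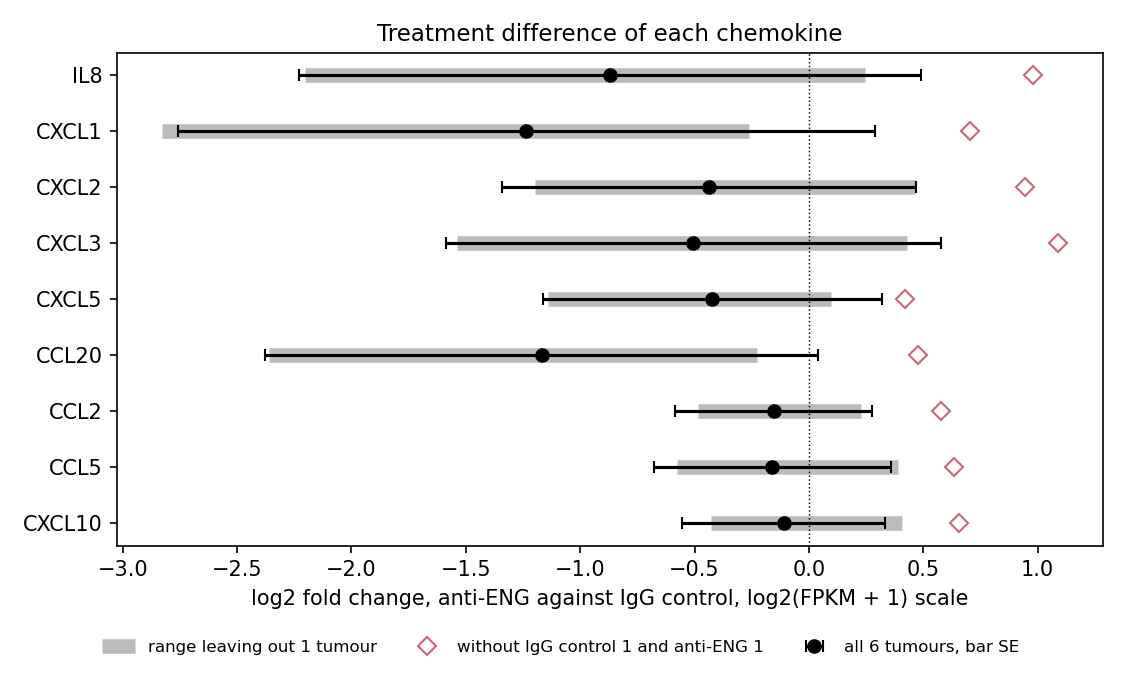
Log2 fold change of each chemokine, anti-ENG against IgG control, on the log2(FPKM + 1) scale: points are all 6 tumours with SE bars, grey bars the range when 1 tumour is left out, and open diamonds the estimate without IgG control 1 and anti-ENG 1. The points are below 0 and the diamonds above 0 for all 9 genes, and the SE bars of all 9 cross 0.

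Across tumours, some of the tested chemokines formed a tight set, and the rest are given as a looser one. This division was made after the values were seen, and Pearson's r of log2(FPKM + 1) is given over 6 tumours as a description, since the tumours lie in uneven clusters and pairs of them share a code number. Among IL8, CXCL1, CXCL2, CXCL3, CXCL5 and CCL20 the 15 pairs had r from 0.935 to 0.995, with a median of 0.981. Among CCL2, CCL5 and CXCL10 the 3 pairs had r from 0.848 to 0.921. Between the sets r ran from 0.513 for CXCL5 with CXCL10 to 0.95 for CXCL2 with CCL2, with a median of 0.763. CCL2 was the gene of the looser set that followed IL8 most closely, at 0.918, followed by CCL5 at 0.754 and CXCL10 at 0.596. With the genes of the tight set CCL2 had r from 0.864 to 0.95, against 0.899 with CCL5 and 0.848 with CXCL10. It was thus as near to the tight set as to the looser one, and its place is not settled by these values.

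Taking each tumour's deviation from its arm mean changed little. The median r over all 36 pairs was 0.923 within arms and 0.920 over the 6 tumours. Within arms the tight set had a median of 0.984, and the pairs between the sets had one of 0.767. In the 3 IgG tumours alone, IL8 and CXCL10 had r = 0.993, and in the 3 anti-ENG tumours alone 0.435, where anti-ENG 2 was low for IL8 and highest for CXCL10. With 3 tumours in an arm, these values describe only those tumours.

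**Figure D4:**
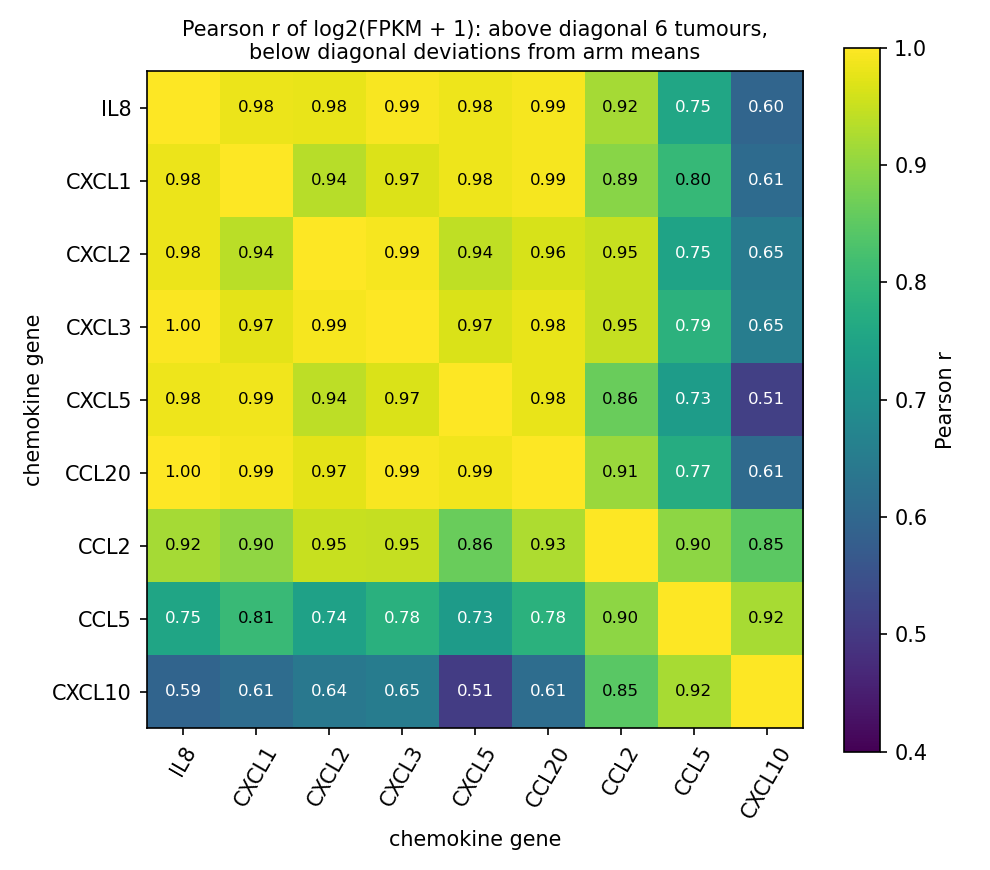
Pearson r of log2(FPKM + 1) between the 9 tested chemokines (colour and printed value): above the diagonal over the 6 tumours, below it for deviations from the arm means. The 6 genes from IL8 to CCL20 have r of 0.935 or more with each other, and CXCL10 has the lowest values, down to 0.513 with CXCL5 over the tumours and 0.506 within arms.

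Genes outside the set with the most similar pattern were ranked by r with the mean z-scored profile of the 9 members. Of 12577 such genes, 113 (0.898%) reached r = 0.95 over the 6 tumours and 246 (1.96%) did so within arms. The 10 highest over the 6 tumours were TNIP1 (0.996), DTX2, NFKBIB, SLC39A14, ELL, SLCO4A1, AKR1B1, ITPR2, FTH1 and NFKB1 (0.985). TNIP1 encodes an inhibitor of NF-kappaB signalling that binds A20, NFKBIB an inhibitor that holds NF-kappaB in the cytoplasm, and NFKB1 the p105/p50 subunit. TNIP1 had FPKM values of 199.96, 82.7 and 122 in IgG control tumours 1 to 3 and of 75.7, 103 and 181 in anti-ENG tumours 1 to 3, the tumour order of IL8. SLC39A14, a zinc and iron importer, had 181, 45.8 and 84.8 FPKM in the IgG tumours and 38.6, 52.6 and 144 in the anti-ENG tumours. FTH1, the ferritin heavy chain, had 1730 FPKM in IgG control 1, 1419 in anti-ENG 3 and 515 in anti-ENG 1.

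Within arms the 10 highest were SOCS3 (0.998), TNIP1, ACTN1, DTX2, PPARA, NFKBIB, ELL, LAMB3, ROBO4 and SLCO4A1 (0.993). SOCS3, the feedback inhibitor of cytokine receptors that signal through STAT3, had 22.4, 11.2 and 15.8 FPKM in the IgG tumours and 9.16, 11.4 and 17.97 in the anti-ENG tumours. LAMB3, a laminin-332 chain, had 146, 51.8 and 85.5 FPKM in the IgG tumours and 60.8, 77.2 and 161 in the anti-ENG tumours. The 4 lowest over the 6 tumours were CTR9, a subunit of the transcription elongation complex PAF1C (-0.993), the organic anion transporter gene SLCO1B3 (-0.989), GABPA and FAR1. SLCO1B3 had 1.02, 4.84 and 2.29 FPKM in the IgG tumours and 5.57, 4.32 and 1.38 in the anti-ENG tumours, so its highest tumour was the lowest of IL8. These genes were picked from 12577 over 6 tumours, and no function is read from them.

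A list of 20 NF-kappaB subunits and feedback genes, 19 of them tested, is set beside each chemokine. The median r with these genes was 0.954 for IL8, 0.920 for CXCL1, 0.960 for CXCL2, 0.961 for CXCL3, 0.911 for CXCL5 and 0.948 for CCL20. It was 0.923 for CCL2, 0.733 for CCL5 and 0.634 for CXCL10, and the median over all tested genes was between -0.0561 and -0.0454 for each chemokine. SOD2, the mitochondrial superoxide dismutase and a classical NF-kappaB target, was the gene of this list nearest to IL8, at 0.999. It had FPKM values of 484, 110.4 and 224 in IgG control tumours 1 to 3 and of 110.8, 112 and 400.1 in anti-ENG tumours 1 to 3. ZC3H12A (regnase-1), an RNase that degrades cytokine mRNAs, was nearest to CCL20, also at 0.999. These genes were singled out after their values were seen.

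For interferon response genes, 17 of 18 tested, the order of the chemokines was another. The median r was 0.135 for IL8, 0.032 for CXCL1, 0.302 for CXCL2, 0.206 for CXCL3, 0.018 for CXCL5 and 0.101 for CCL20. It was 0.548 for CXCL10, 0.425 for CCL2 and 0.338 for CCL5, so CXCL2 lay close to CCL5. GBP1, an interferon-induced GTPase singled out after its values were seen, was the gene of this list nearest to CXCL10, at 0.910. It was as near to CCL2 (0.949) and CCL5 (0.917), and had r = 0.767 with IL8. GBP1 had 122, 45.7 and 72.8 FPKM in the IgG tumours and 44.0, 89.0 and 86.1 in the anti-ENG tumours. CXCL11, the neighbour of CXCL10 and a ligand of the same receptor, had r = 0.988 with CXCL10 and 0.522 with IL8. CXCL11 had 81.8, 51.2 and 57.0 FPKM in the IgG tumours and 35.8, 83.9 and 66.2 in the anti-ENG tumours, the same tumour order as CXCL10. CXCL9, the remaining ligand of CXCR3, did not exceed 0.326 FPKM. ENG, the antibody target, had r = 0.891 with CXCL10, 0.845 with CCL2 and 0.639 with IL8. Whether these medians differ between chemokines beyond chance was not tested.

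**Figure D5:**
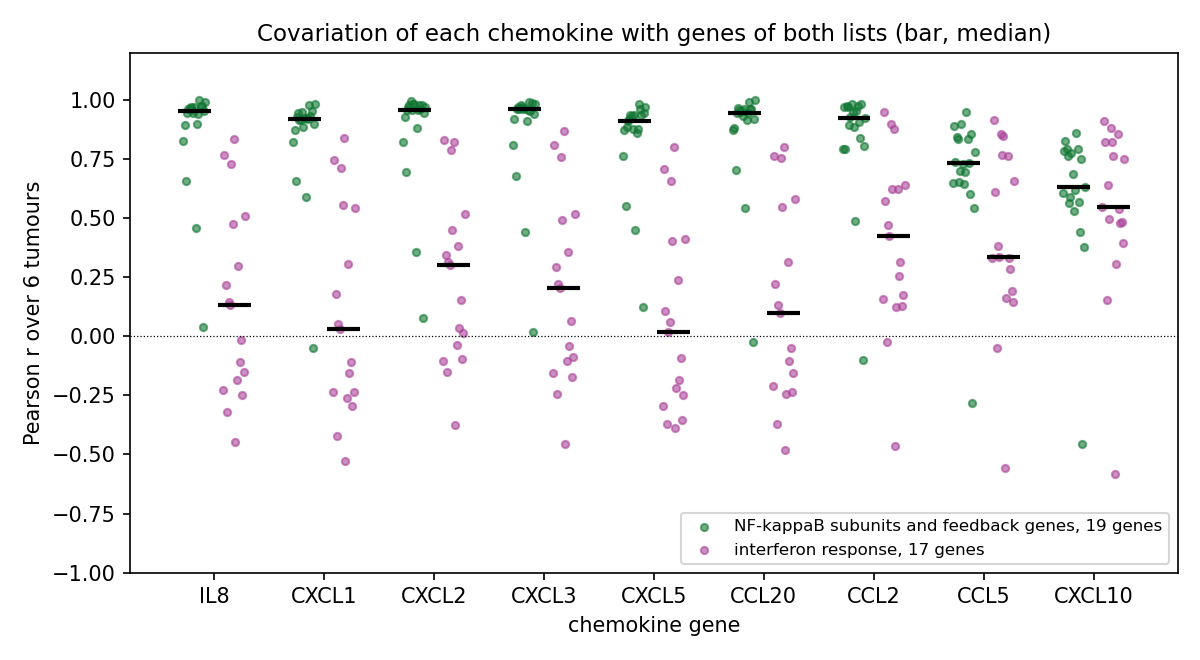
Pearson r over the 6 tumours of each chemokine with the 19 tested NF-kappaB genes (green) and the 17 tested interferon response genes (purple); each point is 1 gene and bars are medians. For IL8 the medians are 0.954 and 0.135, and for CXCL10 they are 0.634 and 0.548.

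In the treatment comparison none of the other pathway genes passed limma's adjusted threshold. Of 34 other chemokine ligands, 9 were tested, 5 with estimates below 0 and 4 above, and 0 passed in either direction. Without anti-ENG 1, 3 of 9 were below 0, and with IgG control 1 left out as well, 2 of 9. The largest of them by mean were CXCL11 and CX3CL1, the membrane-bound fractalkine, which had 41.1 ± 28.9 and 23.9 ± 12.6 FPKM (SD, n = 3 each; log2 fold change -0.72, limma adjusted p = 0.646). CXCL12, the ligand of CXCR4, had a log2 fold change of -0.58, CXCL16 one of 0.21 and CCL3 one of -0.37. Of 23 chemokine receptors 5 were tested and 0 passed. CCR7, which guides dendritic cells and lymphocytes to lymph nodes, had the smallest p of them, at 1.41 ± 0.583 FPKM in the IgG arm against 0.639 ± 0.365 FPKM (SD, n = 3 each; log2 fold change -0.55, limma adjusted p = 0.536). CCRL2, an atypical receptor, had a log2 fold change of -0.19. CXCR1 and CCR2 were listed at 0 in all 6 tumours, and CXCR2 did not exceed 0.0444 FPKM, so RNA of these receptors was at or near 0 in this human table. The scavenger receptor CXCR7 (ACKR3) had 4.62, 0.526 and 2.05 FPKM in the IgG tumours and 0.463, 0.367 and 1.58 in the anti-ENG tumours, a log2 fold change of -0.78. CCR1 had 3.57 to 10.3 FPKM, with anti-ENG 2 highest and anti-ENG 1 lowest, as for CXCL10.

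Of the NF-kappaB list, 18 of 19 estimates were below 0 and 0 passed, with a median of -0.24. BCL3, an atypical NF-kappaB cofactor, had the smallest p of the list, with 27.5 ± 11.2 and 15.4 ± 5.51 FPKM (SD, n = 3 each; log2 fold change -0.78, limma adjusted p = 0.529). CYLD had -0.35, TNIP2 0.19 and ZC3H12A -0.73. Of 20 inducing cytokines and their receptors 15 were tested, 13 with estimates below 0, and 0 passed (median -0.54). IL1B, an inducer of most of these chemokines, had 542, 29.3 and 85.8 FPKM in the IgG tumours and 13.4, 8.81 and 176 in the anti-ENG tumours, a log2 fold change of -1.95 (limma adjusted p = 0.606). IL1R1, its receptor, had -0.75, TNFRSF1B -0.77 and OSMR -0.54. IL6, which had r = 0.991 with IL8, had 1269, 35.3 and 137 FPKM in the IgG tumours and 20.2, 20.7 and 609 in the anti-ENG tumours. The tumours high in IL8 were thus high in IL1B and IL6 in both arms. The direction of the NF-kappaB list turned without IgG control 1, and that of the inducers turned with that tumour and anti-ENG 1 both left out, in counts added after the data were seen. Without IgG control 1, 5 of the 19 NF-kappaB genes were below 0 (median 0.066), and without anti-ENG 1, 12 of 19 (median -0.036). For the inducers, 11 of 15 were below 0 without IgG control 1 (median -0.050) and 11 of 15 without anti-ENG 1 (median -0.33). With both tumours left out, 3 of 19 NF-kappaB genes (median 0.26) and 5 of 15 inducers (median 0.12) were below 0.

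Factors that govern the decay of mRNAs with AU-rich elements (many chemokine mRNAs hold such elements) were another list. Its 13 genes summed to 420 to 480.1 FPKM per tumour, and 0 passed, with a median of -0.091. ZFP36 (tristetraprolin), which binds AU-rich elements and speeds decay, had 9.63, 6.39 and 5.62 FPKM in the IgG tumours and 3.02, 4.58 and 5.29 in the anti-ENG tumours, a log2 fold change of -0.63 (limma adjusted p = 0.529). The deadenylase gene CNOT7, with 24.6 to 45.3 FPKM, had 0.38, MAPKAPK2 -0.23 and XRN1 -0.22. Of the 17 interferon genes 0 passed, with 7 estimates below 0 and 10 above. Without IgG control 1, 3 of 17 were below 0 (median 0.15), and without anti-ENG 1, 4 of 17 (median 0.13). STAT2 had a log2 fold change of -0.54, ISG15 0.35, IRF3 -0.24 and IFIT1 0.32. Among 13 genes of proteins that cleave or bind chemokines 10 were tested and 0 passed, with SDC1 at 0.37, MMP14 at -0.89, CTSB at -0.24 and MMP1 at -0.81.

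Markers of other cell types are given for the same tumours. Host cells are mouse cells, so their RNA enters this table only where its reads align to human genes. Of 11 neutrophil markers, CSF3R, ELANE and MPO were listed at 0 in all tumours, and 2, S100A8 and S100A9, reached a mean of 1 FPKM. The summed level of the list was 11.6 to 208 FPKM under IgG, highest in IgG control 3, and 1.9 to 111 FPKM under anti-ENG, highest in anti-ENG 3. Most of the sum was S100A8 and S100A9, at 85.5 and 121 FPKM in IgG control 3 and 4.30 and 5.54 in IgG control 1. IgG control 1, the top tumour of IL8, had the lowest sum of the IgG arm. No neutrophil content is read from this sum. Monocyte and macrophage markers summed to 199 to 225 FPKM under IgG and 126 to 344 FPKM under anti-ENG, with 4 of 12 at a mean of 1 FPKM and MRC1 listed at 0. Anti-ENG 2 was highest and anti-ENG 1 lowest in that sum, as for CXCL10 and CCR1, and these were also the highest and lowest tumours of CD74, the marker of highest mean in the list. The other tested markers did not share both ends of this order. CD68 was highest in IgG control 1 (115 FPKM) and lowest in IgG control 2 (58.4). CSF1R was highest in IgG control 1 but lowest in anti-ENG 1 (1.12), as CD74 was, and LYZ was lowest in anti-ENG 2 (1.27). CD74, which interferon also induces, had 261 FPKM in anti-ENG 2 and 50.3 in anti-ENG 1. CD14, CD163, AIF1, TYROBP and FCGR1A did not exceed 0.896 FPKM in any tumour, and PTPRC did not exceed 1.13. No monocyte or macrophage content is read from the sum of this list, and its relation to the CXCL10 values was not tested.

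T and NK cell markers summed to 1.77 to 2.72 FPKM over both arms, with 1 of 12 at a mean of 1 FPKM and CD3E, CD2, NCR1, NKG7 and GZMB listed at 0. Endothelial markers summed to 6.52 to 10.00 FPKM under IgG and 7.73 to 10.4 FPKM under anti-ENG, with 3 of 10 at a mean of 1 FPKM. Fibroblast markers, all 10 of them tested, summed to 810 to 1513 FPKM under IgG, highest in IgG control 1, and to 362 to 942 FPKM under anti-ENG, lowest in anti-ENG 1 and highest in anti-ENG 3. IgG control 1 and anti-ENG 3 are also the top tumours for the chemokines and anti-ENG 1 the lowest in most of them. The other tumours went otherwise: IgG control 2, low in the chemokines, had the second highest fibroblast sum (1161 FPKM), and IgG control 3 the lowest of its arm. DCN and LUM, matrix proteoglycans, were highest in IgG control 2, at 48.5 and 33.5 FPKM. The part of the fibroblast genes in the chemokine values was not tested. Keratinocyte markers summed to 29.4 to 38.4 FPKM over both arms. Relative depth was lowest in IgG control 1, at 1, and highest in anti-ENG 1, at 1.46; its part was not tested.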

How the data were processed

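Values are the FPKM values that the authors deposited, 1 column per tumour. Per the submitters' processing notes, reads were handled with TopHat2 2.0.10, Cufflinks 2.2.1 and Cuffnorm, beside Bowtie 1.0.0, FastQC 0.10.1 and SAMtools 0.1.1.9, on human build hg19 (GRCh37). The scaling of Cuffnorm, the strand setting and the treatment of mouse reads are not given in the sources used here. Libraries were made from polyadenylated RNA per the labels' protocols, and both a TruSeq and a directional kit are named without saying which served which tumour. If kits differed between arms, that difference and treatment cannot be told apart.

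Sample titles gave the groups and replicate numbers. All tested genes were fitted on log2(FPKM + 1) by limma 3.58.1 (R 4.3.3), allowing for a variance trend, without covariates, two-sided p-values and Benjamini-Hochberg adjustment at 0.05. This scale understates changes of low genes. The fit was run on simulated data in which genes varied independently of each other. Genes covary in these tumours, so that run gives no error rates for these data. P-values set the difference between arms against the spread of these tumours within arms only, with variances moderated across genes. Tumours that share a code number count as separate units in them.

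The 10 genes and the lists were chosen with earlier results of these data known. Named are the members, the 4 genes of smallest p in each pathway list, the genes nearest to the member profile and ENG; others are said to be chosen after their values were seen, or were named as markers or receptors. Alternatives covered pseudocount, filter, scaling, variance model, weights, replicate block, code number and left-out tumours. Sequences of the human genes were not used here.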

Additional observations from a re-analysis of the deposited data

How the results depend on the processing

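No gene passed limma's adjusted threshold under any of the 18 alternatives run, and no other pathway gene did, with a smallest adjusted p of 0.261 to 0.831. The members' treatment estimates changed sign more readily. Sample weights turned the member median to 0.26, with IL8 at 0.26, CXCL2 0.37, CXCL3 0.44, CXCL5 0.13, CCL2 0.25, CCL5 0.27 and CXCL10 0.26. With IgG control 1 and anti-ENG 1 both left out, the median reached 0.66, with IL8 at 0.98, CXCL1 0.70, CXCL2 0.94, CXCL3 1.09, CXCL5 0.42, CCL2 0.58, CCL5 0.64, CCL20 0.48 and CXCL10 0.66; that leaves 2 tumours an arm. Leaving out 1 tumour gave a median between -1.20 and 0.14. The ranges were -2.20 to 0.25 for IL8, -1.20 to 0.47 for CXCL2, -1.54 to 0.43 for CXCL3, -1.14 to 0.098 for CXCL5, -0.48 to 0.23 for CCL2, -0.57 to 0.39 for CCL5 and -0.43 to 0.41 for CXCL10; CXCL1 (-2.83 to -0.26) and CCL20 (-2.36 to -0.22) stayed below 0. The cause was not tested.

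Pseudocounts, filters, scalings, the variance model and averaging by code number left 9 of 9 estimates below 0. Rescaling to the same sum of FPKM moved the median of all genes to -0.10 and the split at an unadjusted p under 0.05 from 700 higher and 454 lower to 168 and 1088, and upper quartile rescaling to 496 and 572. The median r between members stayed between 0.875 and 0.986 over the tumours. Tumours of the 2 arms with the same replicate number in their titles correlated at -0.329, 0.194 and 0.0371 in their deviations. These few values cannot settle whether the numbers, which are not the description codes, pair tumours across arms. With the replicate block 0 genes passed, 842 had an unadjusted limma p under 0.05 and the member median stayed at -0.44. The absolute depth is unknown; of the members, CXCL6 did not reach the filter.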
